A study of Ovis aries with 26 samples.

Results

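Intestine-like epithelial cells were sought in single cell RNA-seq (scRNA-seq) data from the sheep pancreas. A cell was counted as intestine-like when it held at least 1 unique molecular identifier (UMI, one captured RNA molecule) of 2 or more of CDH17, CDX1, GUCA2A and MUC2, the last listed as LOC780488. The cells were thus chosen by their measured UMIs of these 4 genes, which are no finding below. The rule chose 172 of 79510 kept cells. The study followed pancreatic disease in a sheep model of cystic fibrosis (CF), which lacks the chloride channel CFTR, at 80 days and 120 days of gestation and at term. It comprised 26 libraries from 23 animals of the American Romney breed, 3 of which gave a pair of libraries.

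The 11 no CF animals were bred naturally. There were 4 of them at 80 days, 3 of them at 120 days and 4 at term. 1 at 120 days and 1 at term were female and the others male. At 80 days replicates 2 and 4 carried 1 targeted CFTR allele (CFTR+/-, exon 11) and, with replicate 3, were triplets. The other no CF animals were wild type (WT). All 12 CF animals were CFTR-/-. All 3 of the youngest, 4 of the 6 at 120 days and 1 of 3 at term were males cloned from 1 neonatal fibroblast line targeted in exon 2, so they stand for 1 donor genome. The other 4 CF animals were naturally bred females. Only CF animals were cloned, so at 80 days cloning cannot be told apart from genotype. The libraries held 943 to 9543 kept cells and 5019168 to 162370138 UMIs in those cells.

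The epithelium of the intestine is a single layer that is renewed from crypts. Dividing crypt cells give rise to absorptive enterocytes with a brush border, to mucus-filled goblet cells and to rarer hormone-producing enteroendocrine cells. CDX1 and CDX2 are homeobox transcription factors of the intestinal epithelium, CDH17 is an adhesion protein of its cells, GUCA2A encodes guanylin, the hormone that stimulates the receptor GUCY2C and through it CFTR, and MUC2 is the main gel-forming mucin of goblet cells. Pancreatic ducts are lined by another epithelium, which secretes bicarbonate through CFTR and associated transporters. The duct cells used as comparator held at least 1 UMI of 3 or more of KRT7, KRT19, CFTR, SLC4A4, CLDN4 and DCDC2, and numbered 21404 over all libraries.

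Nearly all intestine-like cells came from 2 of the 26 libraries. WT fetus 1 of the no CF group at 80 days (hereafter the 80-day fetus) had 20 such cells among 2565, a share of 0.780% (exact 95% binomial interval 0.477 to 1.20%). WT animal 4 of the no CF group at term (hereafter the term animal) had 146 among 3009, a share of 4.85% (4.11 to 5.68%). These 2 libraries held 166 of the 172 cells (96.5%). In 19 libraries no cell passed the rule, and a count of 0 there allows a share of up to 0.0314 to 0.277%, depending on the number of cells. Intervals and limits of this kind cover counting error only.

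The other 6 cells were spread over 5 libraries, and the label did not hold for them. Each carried CDH17 and GUCA2A alone of the 4 genes, with 1 to 4 UMIs of CDH17 and 1 or 2 of GUCA2A, and no UMI of REG4, SPINK4, LGALS4 or KRT20. The last was also true of 4 of the 20 cells of the 80-day fetus and 2 of the 146 of the term animal, which stayed in the class. 3 of them, 1 in no CF fetus 3 at 80 days and 2 in no CF fetus 1 at 120 days, had 39, 121 and 34 UMIs of CHGA, the chromogranin of endocrine cells. 2 of them, in CF fetuses 1 and 3 at 120 days, had all 6 duct genes. The sixth, in CF animal 3 at term, had 2 duct genes and 3 UMIs of TFF3. All cells with 3 or more of the 4 genes lay in the 2 named libraries, 16 in the 80-day fetus and 129 in the term animal, against 0 in the other 24 libraries. 7 and 66 cells had all 4.

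**Figure D1:**
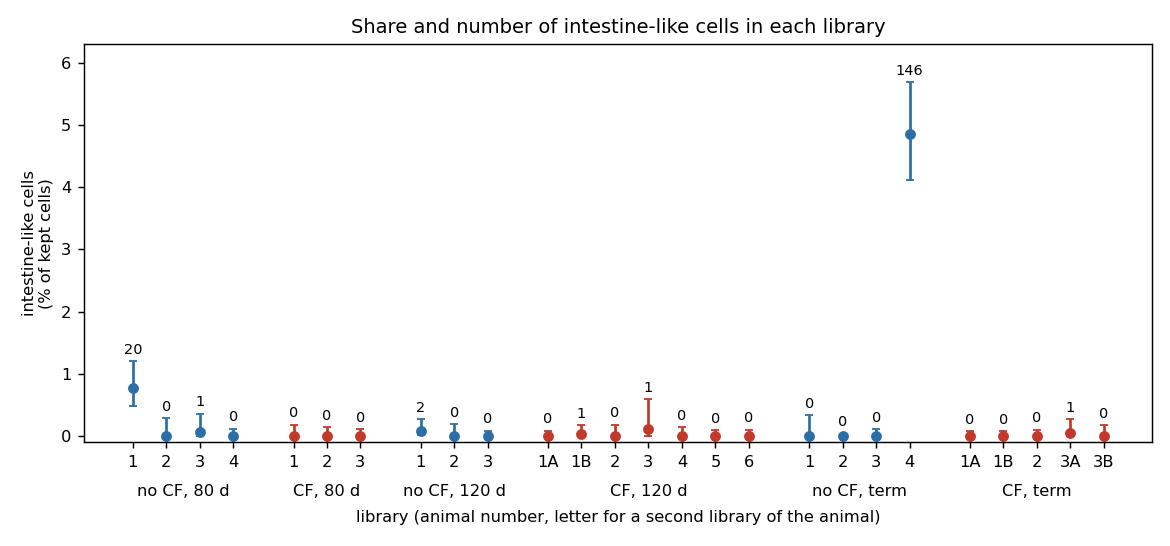
Share of intestine-like cells in each of the 26 libraries, as a percent of kept cells, with exact 95% binomial intervals as bars and the number of cells printed above. Libraries are ordered by age and by CF status, and the 2 that stand apart hold 20 and 146 cells.

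The study asked how the cell makeup of the CF pancreas differs from that of its controls, and the share of intestine-like cells per animal was compared at each age, with the libraries of an animal averaged. At 80 days the mean share was 0% ± 0 (SD, n = 3) in CF and 0.211% ± 0.380 (SD, n = 4) in no CF fetuses, and the exact two-sided permutation test gave p = 0.714. At 120 days the means stood at 0.0203% ± 0.0425 (SD, n = 6) and 0.0255% ± 0.0441 (SD, n = 3), with an exact permutation p = 1. All cells at 120 days were among the 6 for which the label did not hold, so this value does not compare intestine-like cells, and without cells that lack REG4, SPINK4, LGALS4 and KRT20 the difference was 0, and -0.156 at 80 days. At term they stood at 0.00804% ± 0.0139 (SD, n = 3) and 1.21% ± 2.43 (SD, n = 4), with an exact permutation p = 1. The test counts each clone, each triplet and each of the naturally bred CF twins at 120 days as a replicate, although the clones share 1 genome. After Benjamini-Hochberg adjustment over the 3 ages each p was 1. The smallest p the group sizes allow is 0.0286 at 80 days and at term and 0.0119 at 120 days. At 80 days and at term most shares were tied at 0, so no regrouping could reach a p that small. These 2 tests could therefore not show a difference. At 80 days and at term the no CF mean rested on 1 animal, and without that animal the difference (CF minus no CF) moved from -0.211 to -0.0217 percentage points at 80 days and from -1.20 to 0.00804 at term.

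The rule had a threshold of 2 genes, and cells on both sides of it are described here without a test. In the term animal 17 cells held exactly 2 of the 4 genes, and 15 of them (88.2%) also had a UMI of LGALS4, a galectin of the digestive epithelium. Of the 155 cells with exactly 1 gene, 12 (7.74%) had LGALS4, and of the 2708 cells with none, 67 (2.47%). In the 80-day fetus 4 cells held exactly 2 genes and 1 of these had LGALS4, against 2 of 62 cells (3.23%) with 1 gene. Most of the cells inside the rule lay well past its threshold, with 63 and 66 cells of the term animal holding 3 and 4 of the genes and 9 and 7 cells of the 80-day fetus.

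Outside these libraries the 4 genes were seen in few cells. Over the other 24 libraries, CDH17 was found in 0 to 77 cells of a library, GUCA2A in 0 to 16, MUC2 in 0 to 6 and CDX1 in 0 to 5. Within the 2 libraries, the genes of the rule were rare in cells that should lack them and can hold them as free RNA. In immune cells CDH17 was found in 2 of 90 cells of the 80-day fetus (2.22%) and 0 of 76 of the term animal, where a count of 0 allows up to 3.95%. The median depth of those immune cells was 10010.5 and 3313.5 UMIs, against 22313.5 and 21208 in the intestine-like cells. The cells of the rule had CDH17 in 20 of 20 and 141 of 146 cells. MUC2 was found in 27 of 592 duct (4.56%), 5 of 140 endothelial (3.57%) and 2 of 76 immune cells (2.63%) of the term animal. There 88 cells held MUC2 alone of the 4 genes, 72 of them with 5% or more of their UMIs from acinar genes. With MUC2 left out of the rule the difference in share (CF minus no CF) at term was -1.15 percentage points.

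VIL1, a marker of the class that the rule did not use, encodes villin, which bundles actin in the brush border. It was found in 20 of 20 intestine-like cells of the 80-day fetus and in 133 of 146 (91.1%) of the term animal. Duct cells of the same libraries had it in 656 of 1018 (64.4%) and 231 of 592 (39.0%), and immune cells in 19 of 90 (21.1%) and 0 of 76. After each cell was thinned to 2000 UMIs, VIL1 was found in 20% and 24.7% of intestine-like cells and in 10.1% and 5.6% of duct cells. The level of VIL1 was 239 CPM (a gene's UMIs per 1000000 UMIs of the cells summed) in the intestine-like cells of the 80-day fetus (exact 95% Poisson interval 195 to 289) and 167 (154 to 182) in those of the term animal. Duct cells had 54.5 and 19.7 CPM, and the duct cells with under 5% of UMIs from acinar genes 68.9 and 39.7. VIL1 was thus lower in duct cells, but by under 4-fold in the 80-day fetus against the latter cells (log2 ratio 1.78, and 2.05 in the term animal).

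Markers of endothelial, immune and red blood cells were at or near 0 in the class, while those of endocrine and acinar cells were not. The 7 endothelial genes summed to 2.27 CPM in the 80-day fetus and 3.55 in the term animal, with PECAM1 at 0 and 0.296 CPM. The 10 immune genes summed to 4.55 and 5.62 CPM, with PTPRC at 0 and 0.296, and the 7 erythroid genes to 0 and 2.07. The 9 stromal genes summed to 45.5 and 3.55 CPM, with PDGFRA at 0 in both. Genes of the digestive enzyme-making acinar cells summed to 935 CPM over 15 genes in the 80-day fetus and 11412 in the term animal, and they took a median of 0.215% and 0.424% of a cell's UMIs, with 0.217% and 1.08% in immune cells. In the term animal 13 of the 146 cells had 5% or more of their UMIs from acinar genes, and in the 80-day fetus 0 of 20. The 17 pancreatic endocrine genes summed to 3289 and 808 CPM. A single cell held 89.9% of the UMIs of GCG in the 80-day fetus, and another 97.4% of the UMIs of PPY (pancreatic polypeptide) in the term animal.

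The duct class was less clean. The median duct cell had 15.2% of its UMIs from acinar genes in the 80-day fetus and 43.0% in the term animal, so 385 of 1018 and 215 of 592 duct cells with under 5% were used as a further comparator, chosen after the values were seen. The duct cells with under 5% were shallower, with 5153955 UMIs over 385 cells and 1259752 over 215. Among them 1 cell of the 80-day fetus and 3 of the term animal had 2 or more of REG4, SPINK4, LGALS4 and KRT20. How far these cells set the levels of intestinal genes given below for this comparator was not tested. The intestine-like cells held 439687 over 20 and 3383681 over 146. Intestine-like and all duct cells were sequenced to like depth, with a median of 28293.5 and 25752.5 UMIs per duct cell. But the intestine-like cells had more genes detected, 4533 against 4240.5 and 3794.5 against 2978. They also had a larger median share of mitochondrial UMIs, 5.66% against 3.94% and 6.87% against 4.16%, and the part of these 2 measures in the differences below was not tested. Of the 172 cells 125 also passed the duct rule and were counted as intestine-like alone. No doublet caller was run. With cells above the 95th percentile of UMIs of their library left out, the difference in share between CF and no CF animals was -0.212 percentage points at 80 days and -1.27 at term. 7 of their barcodes occurred also in another library, and none belonged to an intestine-like cell in both.

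Only the 80-day fetus and the term animal had 10 or more cells of both classes. Both were WT, so the difference between intestine-like and duct cells is given as values of 2 libraries that also differ in age, with no test, and no comparison of CF with no CF cells within the class was possible. A gene was called when it differed at least 4-fold in the same direction in both libraries, on the log2(CPM + 1) scale. This scale shrinks the ratios of low genes. For a gene with 0 UMIs in the intestine-like cells it can also pass 4-fold where the counts bound the change at less, as for SCTR at 80 days (at least 2.60-fold). Of 8090 genes with a mean over the 2 libraries of at least 10 CPM in either class, 520 were higher in intestine-like cells (6.43% of genes compared) and 208 lower (2.57%). Against the duct cells with under 5% acinar UMIs, 276 of 9435 were higher (2.93%) and 649 lower (6.88%), and 235 and 112 genes were called in the same direction against both. With the ratios of each library centred on their median, 312 genes were higher and 305 lower than in all duct cells. The median log2 ratio over all genes was 0.38 in the 80-day fetus and 0.98 in the term animal against all duct cells, and -0.45 and -0.54 against those with few acinar UMIs. Single genes are best read against these shifts. Of the called genes, 65 higher and 19 lower had no symbol.

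**Figure D2:**
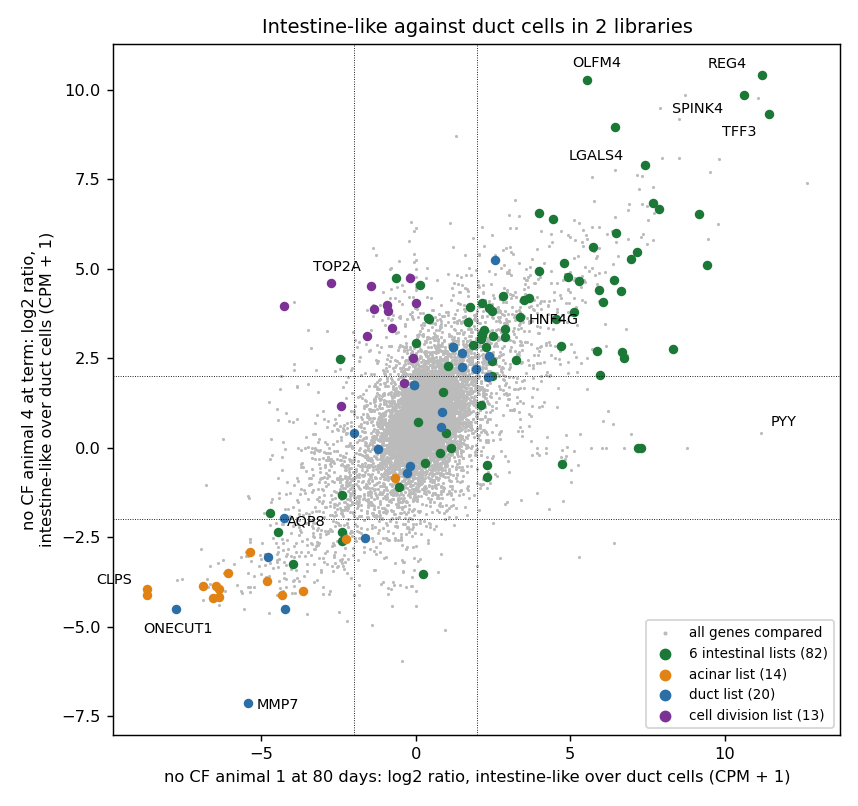
Each point is a gene, placed by its log2 ratio of CPM + 1 in intestine-like over duct cells in the 80-day fetus (x axis) and in the term animal (y axis). Gray points are the genes that passed the minimum against either group of duct cells, among them the 8090 compared with all duct cells. Colored points are the genes of the named lists. REG4, TFF3 and SPINK4 lie to the upper right, and 13 of 14 acinar genes and 4 of the 82 intestinal genes are past 4-fold to the lower left.

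The genes of 6 lists for intestinal epithelium were counted first. Of their 111 genes in the files, 82 passed the minimum of 10 CPM and 29 did not. 49 of the 82 were higher in the intestine-like cells and 4 lower, with a median log2 ratio of 2.85 in the 80-day fetus and 3.23 in the term animal. Against duct cells with few acinar UMIs 33 of 82 were higher and 7 lower, with median log2 ratios of 2.87 and 1.84. A gene that passed the minimum only through the intestine-like cells could hardly fail to be higher, so these counts describe the lists and test nothing.

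Secreted products of goblet cells were among the genes with the largest ratios. REG4, a secreted lectin of goblet and enteroendocrine cells, was at 3271 CPM (3104 to 3444) in the intestine-like cells of the 80-day fetus and 0.405 CPM in its duct cells. In the term animal REG4 was at 4231 CPM (4162 to 4300) against 2.13 in duct cells. TFF3, the trefoil peptide that goblet cells release with mucin, was at 7198 and 2624 CPM against 1.66 and 3.12 in duct cells. A single cell held 41.4% of the 3165 TFF3 UMIs in the 80-day fetus. In the duct cells with few acinar UMIs REG4 was at 1.16 and 9.53 CPM and TFF3 at 4.85 and 26.2, still far below the intestine-like cells.

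SPINK4, a protease inhibitor of goblet cells, was at 1860 and 2440 CPM against 0.184 and 1.63. In the 80-day fetus its 818 UMIs lay in 8 cells, with 43.9% in 1 cell. FCGBP, a mucus protein linked to MUC2, was at 1340 and 244 CPM against 1.36 and 1.63, and 1 cell held 51.1% of its 589 UMIs in the 80-day fetus. CLCA1, a goblet cell metalloprotease that processes mucus, was at 760 and 519 CPM against 7.70 and 0.0495. AGR2, the endoplasmic reticulum protein needed for mucin folding, was also expressed in duct cells, at 383 and 143 CPM, and reached 6132 and 13463 CPM in the intestine-like cells. ATOH1, the transcription factor that sets the secretory fate, was at 66.0 and 15.7 CPM and at 0 UMIs in duct cells of both libraries. These levels were 597-fold and 105-fold above a floor of 3 counts over the duct cells, without the counting error of ATOH1 itself. With CPM + 1 the ATOH1 folds were 67.0 and 16.7. In all, 9 of 14 goblet and secretory genes were higher and 0 lower, and against duct cells with few acinar UMIs 10 of 13 were higher and 1 lower, KLK1, a secreted protease. The mucin MUC2 itself, which helped to choose the cells, stood at 857 and 895 CPM.

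SPDEF, a goblet cell transcription factor below ATOH1, did not reach 4-fold in the 80-day fetus, at 66.0 CPM against 49.2 in duct cells, while in the term animal it stood at 160 against 12. Against duct cells with few acinar UMIs, which had 2.33 and 3.18 CPM, SPDEF was called higher. ZG16, a goblet cell lectin, was at 2.27 and 3.84 CPM in the intestine-like cells with 1.77 and 55.3 CPM in all duct cells and 0 and 4.76 in those with few acinar UMIs. Of the 2 remaining genes of the list in the files that fell below the minimum, BEST2 was at 0 and 5.02 CPM and CREB3L1 at 4.55 and 3.84 CPM.

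Of the transcription factors of intestinal epithelium 7 of 11 were higher and 1 lower, and against duct cells with few acinar UMIs 4 of 13 and 4. CDX1, which chose the cells, was at 234 and 152 CPM, with 0 and 1 UMI in the duct cells. CDX2, its partner that the rule did not use, was at 15.9 CPM in the 80-day fetus, where it rested on 7 UMIs in 6 cells, and 20.7 in the term animal. All duct cells had 1.40 and 0.149 CPM and those with few acinar UMIs 7.37 and 1.59, against which CDX2 was not called.

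HNF4A and HNF4G, nuclear receptors that drive enterocyte genes, were at 66.0 and 180 CPM in the 80-day fetus against 11.1 and 16.4 in duct cells, and at 66.8 and 136 CPM in the term animal against 3.81 and 9.85. PPARG, a nuclear receptor of lipid metabolism, was at 29.6 and 99.3 CPM against 0.405 and 0.198, and KLF4 and KLF5, zinc finger factors of the gut epithelium, were higher too. GATA4, which in the gut is known from the proximal small intestine, was under the minimum, at 0 and 0.296 CPM. It was at 9.28 and 4.16 CPM in all duct cells and at 0.388 and 0 in those with few acinar UMIs, so the term animal was below all duct cells and no difference could be read against the latter. PROX1, a homeobox factor of duct and liver progenitors, was lower in the intestine-like cells. Against duct cells with few acinar UMIs HNF4A, HNF4G and PPARG were among those higher, and the 4 lower were SOX9, ONECUT2, PROX1 and VDR.

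The genes of absorptive cells were counted next. Of 17 enterocyte genes 11 were higher and 1 lower, and against duct cells with few acinar UMIs 7 of 16 were higher and 0 lower. CDHR5 and CDHR2, protocadherins that link microvilli, were at 150 and 116 CPM in the 80-day fetus against 0.700 and 3.50 in duct cells, and at 194 and 56.7 CPM in the term animal against 2.03 and 7.08. MYO1A, USH1C and EPS8L3, further brush border proteins, were higher in both. FABP1, a fatty acid binding protein, was at 746 and 2350 CPM against 2.17 and 22 in duct cells. APOB, the apolipoprotein of chylomicrons, was at 396 and 26.3 CPM against 2.87 and 3.27. In duct cells with few acinar UMIs APOB was at 6.40 and 20.6 CPM. Neither APOB nor EPS8L3 was called against those cells. In the term animal those cells held 24 of the 25 EPS8L3 UMIs of all duct cells. The part of the 3 cells with intestinal markers among them was not tested.

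5 genes of digestive small intestinal enterocytes were not seen. SI (sucrase-isomaltase), LCT (lactase), TMPRSS15 (enteropeptidase), TREH (trehalase) and APOA4 had 0 UMIs in the intestine-like cells of both libraries, where 3 counts correspond to 6.82 and 0.887 CPM. SLC15A1, the peptide transporter of the small intestine, was at 0 and 0.591 CPM and was the 1 enterocyte gene lower than in all duct cells, at 14.7 and 14.1 CPM. It was at 8.73 and 1.59 CPM in those with few acinar UMIs and not called. A few genes were present at 80 days alone. FABP2 was at 318 CPM in the 80-day fetus and had 0 UMIs in the term animal, and the brush border protease MEP1A was at 189 CPM and 0 UMIs. The 2 libraries are 1 animal each, so age cannot be told apart from animal or library.

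Of 11 genes of fluid and chloride handling 8 were higher and 1 lower, and against duct cells with few acinar UMIs 4 were higher and 1 lower. GUCA2B, CA4, BEST4 and OTOP2, counted among the 8, had 96.3 to 100% of their UMIs in 1 cell of the 80-day fetus. GUCA2A, which chose the cells, was at 1790 and 785 CPM, with 45.9% of its 787 UMIs in 1 cell of the 80-day fetus. Its receptor GUCY2C was at 70.5 and 25.7 CPM in the intestine-like cells against 8.66 and 2.13 in duct cells and 27.6 and 7.94 in those with few acinar UMIs. SLC26A3, the chloride and bicarbonate exchanger of the colon and ileum, was at 43.2 and 51.4 CPM against 0.147 and 1.09, with 0.776 and 16.7 in the cells with few acinar UMIs. Neither was called against the latter. In the term animal 21 of the 22 SLC26A3 UMIs of all duct cells lay in the latter, with the same limit. PRKG2, a kinase downstream of GUCY2C, was at 93.2 and 22.5 CPM against 0.553 and 0.0990 and was called against both. CFTR itself, a gene of the duct rule, was expressed in the intestine-like cells at 114 and 47.3 CPM, with 69.1 and 21.1 in all duct cells and 328 and 180 in those with few acinar UMIs. The direction of the CFTR difference therefore depended on which duct cells were used. The gene lower than in all duct cells was AQP8, a water channel, at 27.3 and 170 CPM against 614 and 883, and against duct cells with few acinar UMIs, which had 7.37 and 85.7 CPM, it was not lower.

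**Figure D3:**
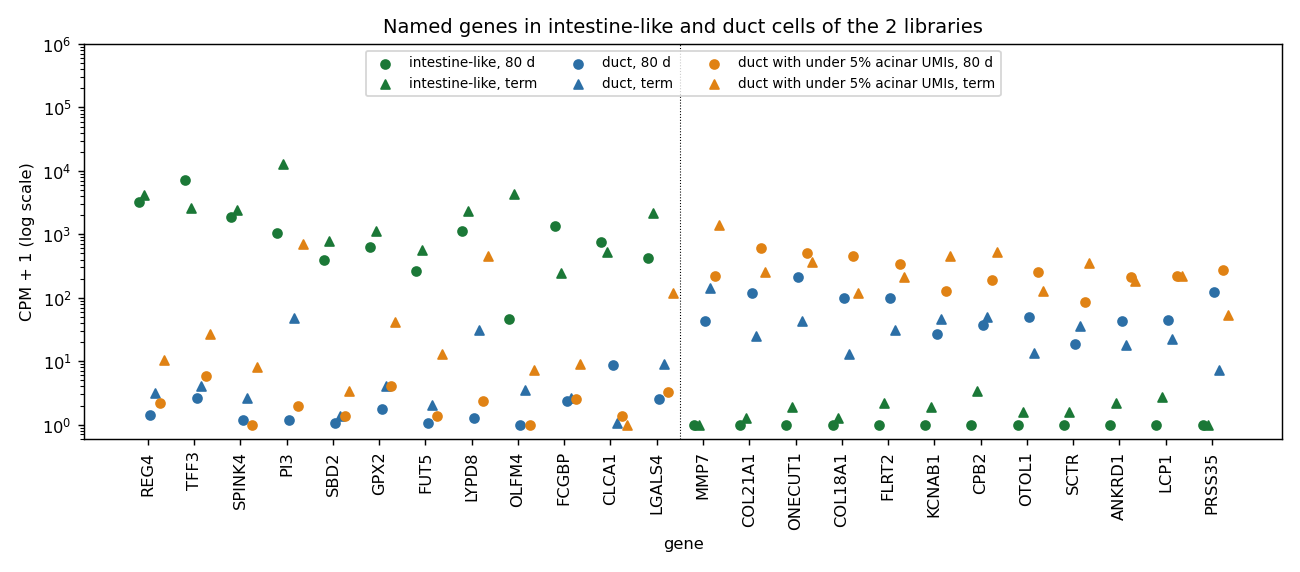
Levels in CPM + 1 (log scale) of 12 named genes on each side of the dotted line. To the left are those with the largest ratio over all duct cells. To the right are those with the smallest ratio over duct cells with few acinar UMIs. Symbols separate intestine-like from duct cells and the 80-day fetus from the term animal, 1 value each. In both animals REG4, TFF3 and SPINK4 lie far above duct cells, and MMP7 and ONECUT1 far below.

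Among general genes of the intestinal epithelium 11 of 20 were higher and 0 lower, and 6 of 20 were higher against duct cells with few acinar UMIs. LGALS4 was at 425 CPM (367 to 491) and 2163 CPM (2113 to 2213) against 1.51 and 8.07 in duct cells. KRT20, the keratin of differentiated intestinal cells, was at 287 and 1079 CPM against 0.405 and 8.47, and 1 cell held 57.9% of its 126 UMIs in the 80-day fetus. MUC13, a membrane mucin of the intestine counted above with the goblet and secretory genes, was at 282 and 238 CPM against 0.995 and 4.41. IHH, the hedgehog ligand by which gut epithelium signals to the mesenchyme, was at 186 and 49.1 CPM against 0.516 and 0.297.

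The named genes with the largest ratios also held PI3, SBD2, LYPD8, GPX2 and FUT5. PI3 (elafin), a protease inhibitor, was at 1046 and 12707 CPM against 0.184 and 46.1 in all duct cells and 0.970 and 692 in those with few acinar UMIs. A single cell held 40.4% of its 460 UMIs in the 80-day fetus. SBD2, a sheep beta-defensin, was at 391 and 786 CPM against 0.0737 and 0.347, and 1 cell held 75% of its 172 UMIs in the 80-day fetus. LYPD8, a protein that keeps bacteria away from the colon epithelium, was at 1126 and 2354 CPM against 0.295 and 29.8 in all duct cells and 1.36 and 460 in those with few acinar UMIs. GPX2, the glutathione peroxidase of the gut, was at 637 and 1117 CPM, and the fucosyltransferase FUT5 at 266 and 555 CPM. These genes were taken by the size of their ratio, so their levels are a description.

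LOC101108654, a gene without a symbol that lies between SPINK5 and SPINK14 in the RefSeq annotation (ARS-UI_Ramb_v3.0), was found in nearly all cells of the class. It was at 43722 CPM in the 80-day fetus against 58.4 in duct cells and at 112193 CPM in the term animal against 533, with UMIs in 18 of 20 and 145 of 146 intestine-like cells. In 438 of 592 duct cells of the term animal (74.0%) and 34 of 76 immune cells (44.7%) it was also found, at a low level. In the duct cells with few acinar UMIs, 1 cell of the 80-day fetus and 3 of the term animal with 2 or more of REG4, SPINK4, LGALS4 and KRT20 held 70.7% and 98.1% of its UMIs. A few cells of intestinal profile thus remained outside the rule. LOC101107171 and LOC101107675, which lie among phospholipase A2 genes of group 2, were at 2277 and 628 CPM in the 80-day fetus and 2360 and 1966 in the term animal, against 0.0737 to 1.73 in duct cells. LOC101103222, a neighbor of lysozyme genes, was at 18149 CPM in the 80-day fetus and 224 in the term animal, against 1.80 and 0.347.

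Among the genes lower in the intestine-like cells were genes of acinar cells and of the duct lineage, and single genes of other lists such as LCP1, TNFRSF19 and CALD1. 13 of 14 acinar genes were lower than in all duct cells, among them CLPS (colipase) at 2.27 and 2059 CPM against 1355 and 35585. Against duct cells with few acinar UMIs 0 of 13 were lower or higher, and CLPS stood at 12.6 and 1033 CPM in those cells. These duct cells were chosen for their low acinar UMIs, so that this count was set by the choice.

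Duct genes outside the rule were lower against both comparators for ONECUT1, SCTR, BICC1 and MMP7. ONECUT1, a transcription factor of the duct lineage, had 0 UMIs in the 80-day fetus, at least 31.2-fold below the 213 CPM of duct cells, and was at 0.887 CPM in the term animal against 42.0. MMP7, a protease of pancreatic duct cells, had 0 UMIs in the intestine-like cells of both libraries, against 41.6 and 141 CPM in duct cells, at least 6.10-fold and 159-fold lower. SCTR, the secretin receptor of ducts, had 0 UMIs in the 80-day fetus and 2 in the term animal, against 17.8 and 35.3 CPM. At 80 days SCTR was at least 2.60-fold lower. BICC1, an RNA-binding protein of ducts and kidney tubules, had 0 UMIs in both, at least 3.85-fold and 8.21-fold lower. The bounds of SCTR and BICC1 at 80 days were thus under 4-fold. Against duct cells with few acinar UMIs they were 12.4-fold and 19.8-fold. In all 4 of 20 duct genes were lower and 2 higher, LGALS3 and ABCC3. Against duct cells with few acinar UMIs 9 of 22 were lower and 1 higher, LGALS3.

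The 6 genes of the duct rule, which defined the comparator and are given as values alone, did not behave alike. KRT19, a keratin of many simple epithelia, was at 1069 and 3211 CPM in the intestine-like cells, 171 and 187 in all duct cells and 574 and 1728 in those with few acinar UMIs. DCDC2, a protein of the duct cell cilium, was at 2.27 and 0.591 CPM against 116 and 22.8 in all duct cells and 590 and 198 in those with few acinar UMIs. KRT7 was at 25.0 and 112 CPM against 85.6 and 92.6 in all duct cells, and against 255 and 884 in those with few acinar UMIs, so its direction in the term animal depended on the comparator. The bicarbonate cotransporter SLC4A4 was lower against both, at 50.0 and 15.7 CPM against 101 and 46.9 and against 488 and 392.1. The tight junction protein CLDN4 stood at 578 and 181 CPM, against 167 and 211 and against 477 and 1187.

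Other lineages of the gut were sparsely represented. Of 5 gastric genes 0 were higher and 2 lower, TFF1 and CLDN18, and neither of these was lower against duct cells with few acinar UMIs. MUC6, GKN2 and SOX2 had 0 UMIs in both libraries, and PGC was at 0 and 0.296 CPM. GKN1, a stomach protein, was at 161 CPM in the 80-day fetus, with 97.2% of its 71 UMIs in 1 cell, and had 0 UMIs in the term animal. ANXA10 was at 15.9 and 2.07 CPM, with 7 UMIs in each library. TFF2, a trefoil peptide of gastric and Brunner glands, was at 769 and 10243 CPM, with 979 and 963 in all duct cells and 53.6 and 55.6 in those with few acinar UMIs, so its direction in the 80-day fetus depended on the comparator. Against the latter cells TFF2 was called higher, the 1 of 3 gastric genes. None of 7 enteroendocrine genes were called. Of 2 tuft cell genes 1 was higher and 0 lower, and against duct cells with few acinar UMIs 1 of 3 was higher and 0 lower. The tuft cell genes POU2F3, GFI1B, DCLK1 and PTGS1 had 0 UMIs in both libraries.

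The crypt marker OLFM4 differed between the 2 animals. It was at 45.5 CPM in the 80-day fetus, in 2 of 20 cells, and at 4385 CPM in the term animal, in 102 of 146 cells, against 0 UMIs and 2.53 CPM in duct cells. At 80 days OLFM4 was 412-fold above a floor of 3 counts over the duct cells, without the counting error of its 20 UMIs. With CPM + 1 the fold was 46.5. MYB, a transcription factor of crypt progenitors, was at 38.7 and 31.3 CPM against 1.51 and 0.0495. The stem cell receptor LGR5 was at 15.9 and 2.07 CPM and under the minimum as a mean of the 2 libraries. Of 10 crypt genes 4 were higher and 1 lower, and against duct cells with few acinar UMIs 2 of 10 and 1.

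Levels of cell division genes went opposite ways in the 2 animals, but shares of cells with MKI67 left the direction at 80 days open. MKI67 was found in 1 of 20 intestine-like cells (5%, interval 0.127 to 24.9%) and 89 of 1018 duct cells (8.74%) of the 80-day fetus. In the term animal it was found in 44 of 146 intestine-like cells (30.1%) and 11 of 592 duct cells (1.86%). With cells thinned as for VIL1, MKI67 was in 5% of intestine-like and 2.85% of duct cells of the 80-day fetus. In the term animal the thinned shares were 8.22% and 0.175%. TOP2A was at 15.9 CPM, with 5 of 7 UMIs in 1 cell, against 111 in duct cells at 80 days and at 155 against 5.50 at term. The median log2 ratio of 13 division genes was -0.92 in the 80-day fetus and 3.89 in the term animal, and none were called in the same direction in both. With MKI67 and TOP2A UMIs together, 36 of 146 intestine-like cells of the term animal had the genes of dividing cells.

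The cells of the class were not alike. MUC2 is a gene of the rule, so values split or ordered by it are a description. Over the 146 cells of the term animal, which share 1 library, Spearman's rho of MUC2 was 0.79 with REG4, 0.73 with TFF3, 0.71 with CLCA1 and 0.67 with SPINK4, and -0.08 with KRT20. KRT20 went with FABP1 (0.80) and CDH17 (0.74) and against OLFM4 (-0.50), and OLFM4 went with TOP2A (0.48). These values also reflect the depth of each cell and carry no test.

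Cells with 10 or more UMIs of MUC2 numbered 52 of 146 in the term animal and 6 of 20 in the 80-day fetus. In the term animal their level of SPINK4 was 6808 CPM against 202 in the other 94 cells, and CLCA1 was at 1503 against 14.8. ATOH1 had UMIs in 20 of these 52 cells and in 2 of the 94. In the 80-day fetus TFF3 was at 22963 CPM in the 6 cells against 537 in the other 14.

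The cells of the term animal also ranged from OLFM4 to KRT20. Over all cells of the class there, 78 held 10 or more UMIs of OLFM4 and 90 held 10 or more of KRT20, with 44 holding both. These counts include cells with 10 or more UMIs of MUC2, 13 of them with OLFM4 and 27 with KRT20. FABP1 was at 3398 CPM in the cells with KRT20, and at 761 CPM in the MUC2 cells against 3164 in the rest. In a single cell of the term animal the UMIs of FABP1 ran from 0 over a median of 19 to 469, of OLFM4 from 0 over 14.5 to 793, and of MUC2 from 0 over 1 to 175. CDH17 was more even, from 0 over 9 to 73.

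**Figure D4:**
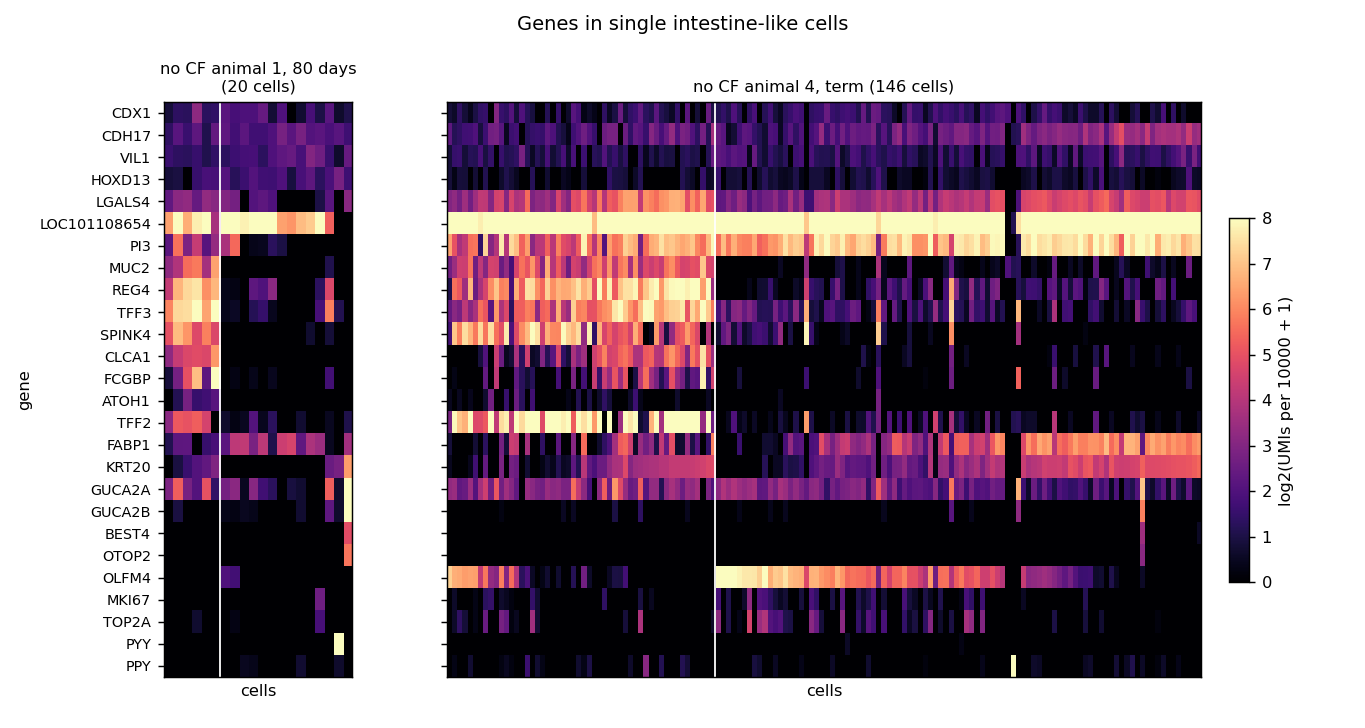
Each column is an intestine-like cell of the 80-day fetus (left, 20 cells) or the term animal (right, 146 cells) and each row a gene, colored by log2(UMIs per 10000 + 1). Cells to the left of the white line hold 10 or more UMIs of MUC2. REG4, TFF3 and SPINK4 are high in these cells, while OLFM4 and KRT20 vary across the others.

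A few single cells carried programs of rare gut cells. One cell of the 80-day fetus held 501 of the 520 UMIs of GUCA2B (uroguanylin), with 361 UMIs of GUCA2A, 144 of CA4, 46 of OTOP2 and 26 of BEST4, the last a channel that names a rare type of mature colonic enterocyte. One cell of the term animal held 120 of 148 UMIs of GUCA2B, with 266 of GUCA2A, 22 of BEST4 and 16 of OTOP2. Another cell of the 80-day fetus held all 3367 UMIs of PYY, with 801 of GCG, 273 of CHGA, 191 of NTS and 48 of CCK, hormones and granule proteins of enteroendocrine cells, and 10 UMIs of HOXD13. GCG is also the glucagon gene of pancreatic islets and was found at 1 to 8 UMIs in each of the other 19 cells. These cells were picked out after their values were seen, and the class levels of GUCA2B, BEST4, OTOP2 and PYY rest on them.

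HOX genes, homeobox genes in 4 clusters (A to D) that set position along the body axis, were found in intestine-like cells at levels not seen in duct cells. The genes with the highest numbers in each cluster are known from the posterior end of the body, including the hindgut. This list was chosen after the values were seen. Of 36 HOX genes in the files 14 passed the minimum, each only through the intestine-like cells, so that all 14 were higher there (13 against duct cells with few acinar UMIs) follows in part from the minimum and supports nothing. HOXD13 was at 223 CPM (in 19 of 20 cells) in the 80-day fetus and 57.9 CPM (in 97 of 146) in the term animal, against 0.442 CPM and 0 UMIs in duct cells. HOXD11 was at 111 and 42.3 CPM, HOXA13 at 77.3 and 21.6, HOXA10 at 61.4 and 16.8 and HOXB13 at 25.0 and 17.1. Summed over groups 9 to 13, the levels were 664 and 243 CPM, against 1.51 and 0.743 in duct cells.

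The 4 clusters differed. All 9 genes of the HOXC cluster had 0 UMIs in the intestine-like cells of both libraries, whereas the 10 HOXA genes each had UMIs in at least 1 of them. In the HOXB cluster 4 of 9 genes and in the HOXD cluster 2 of 8 had 0 UMIs in both. A count of 0 allows up to 6.82 CPM in the 80-day fetus and 0.887 CPM in the term animal, so HOXC genes at the level of all duct cells, where HOXC4 was at 2.10 and 0.446 CPM, could not have been told from 0. In duct cells with few acinar UMIs HOXC4 was at 10.9 and 6.35 CPM.

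**Figure D5:**
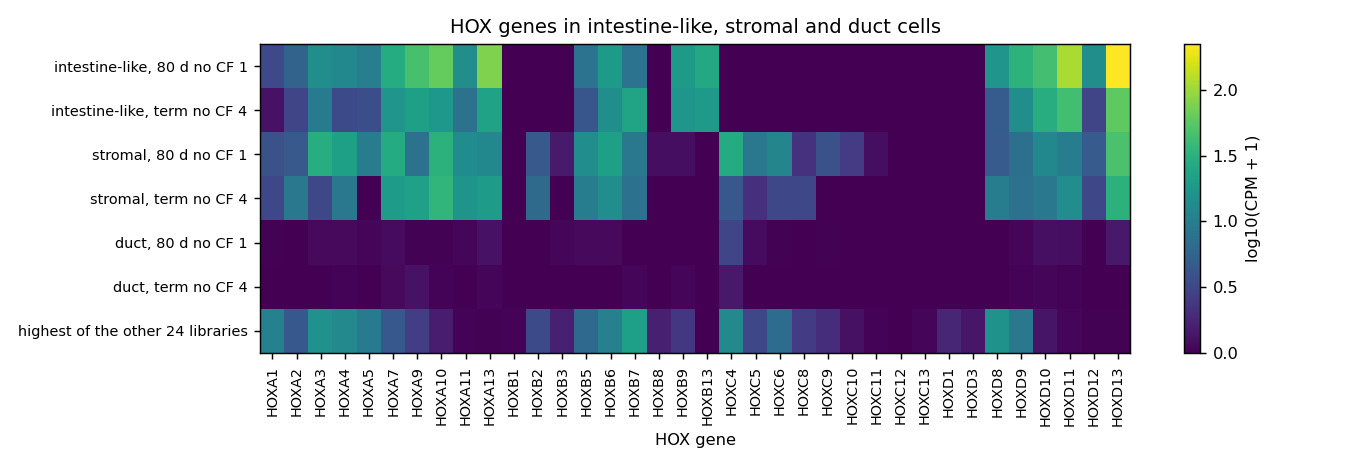
Levels of 36 HOX genes (columns) as log10(CPM + 1) in intestine-like, stromal and duct cells of the 80-day fetus and the term animal (rows). The last row is the highest level among the other 24 libraries, each summed over all cells outside the rule. HOXD13, HOXD11 and HOXA13 are seen in the intestine-like and stromal cells of these 2 animals and are near 0 in duct cells and in the last row.

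The stromal cells of the same 2 libraries also expressed the posterior HOX genes. HOXD13 was found in 98 of 506 stromal cells of the 80-day fetus (19.4%, interval 16.0 to 23.1%) and in 21 of 188 of the term animal (11.2%, 7.05 to 16.6%). In the other 24 libraries it was found in 1 of 7772 stromal cells, HOXA13 in 1 and HOXD11 in 7. HOXD13 was found in 0 of 90 and 0 of 76 immune cells and in 0 of 103 and 0 of 140 endothelial cells of these 2 libraries. It was found in 6 of 1018 and 0 of 592 duct cells, which had a greater depth than stromal cells (median 7531.5 and 4383.5 UMIs). In groups 9 to 13 the stromal levels were 143 and 151 CPM. HOXB13, at 25.0 and 17.1 CPM in the intestine-like cells, had 0 UMIs in stromal cells of both libraries. Unlike the intestine-like cells, the stromal cells of the 80-day fetus expressed HOXC genes, with HOXC4 at 26.6 CPM. In the term animal stromal HOXC4 was at 3.33 CPM, the level of 3 counts there, so this contrast was not shown in that animal. Whether tissue other than pancreas was part of these 2 samples was not tested, and the shares and levels of the intestine-like cells are given with that limit.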

How the data were processed

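Dissociated sheep pancreas was profiled by droplet 3 prime scRNA-seq. The authors deposited UMI counts per gene and barcode, made with Cell Ranger 3.1.0 against the Oar_v4.0 genome. Barcodes with over 200 and under 6000 genes and under 25% mitochondrial UMIs were kept. UMIs of the cells of a class were summed per library and scaled to CPM without division by gene length, so levels are compared between cells and not between genes. Intervals are exact at 95%. Symbols for unnamed loci came from RefSeq (573) and from marker tables of the study (93). The other classes in a library were set by marker counts (stromal 4, endothelial 3 and immune 3 genes or more).

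Shares per animal were tested by exact permutation. For intestine-like against duct cells an edgeR quasi-likelihood test was planned, but under 3 animals had 10 cells of both classes, so values are given. Genes of both rules were left out of the genes compared. Named were the genes of both rules, VIL1, genes of the lists, and the 12 with the largest and the 12 with the smallest log2 ratio. The cells and lists were chosen with earlier results of these data known. Animals were the replicates, clones, triplets and twins included, so p-values treat related animals as independent. The class sums held 439687 and 3383681 UMIs (intestine-like) and 27148596 and 20197969 (duct), so 1 UMI was worth 2.27 and 0.296 CPM in the intestine-like cells. Alternatives were other rules, denominators, thinning to 2000 UMIs with a fixed seed, other duct cells and leaving out each animal. The rule for calling genes was tested on simulated data. Python 3.11.15, numpy 2.4.6, scipy 1.17.1, pandas 2.3.3 and matplotlib 3.10.9 were used. Single genes of the lists that are not named are not reported here.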

Additional observations from a re-analysis of the deposited data

Results flagged for a closer look

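3 shares of intestine-like cells lay far from those of the other animals of their group: 0.780% in no CF fetus 1 at 80 days, 4.85% in no CF animal 4 at term and 0.106% in CF fetus 3 at 120 days, the last resting on 1 cell that carried all 6 duct genes. With normal values chance passes the limit used in about 1 in 20 groups, but most of these shares were 0, so that rate was not shown to hold here.

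HOXD13 was found in 19.4% of stromal cells of no CF fetus 1 at 80 days and in 11.2% of those of no CF animal 4 at term, outside the cells compared, against 1 of 7772 stromal cells in the other 24 libraries. LOC101108654 was at 34.0 and 297 CPM in the cells of these 2 libraries that did not pass the rule, and at 0 to 0.914 CPM in the other libraries. The part of free RNA in the LOC101108654 values was not tested.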

How the results depend on the processing

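The share differed between CF and no CF animals past the threshold under no alternative run (exact permutation p 0.4 to 1 at 80 days, 0.333 to 1 at 120 days, 1 under each at term). The replicate block is too small to pass it. At 80 days and at term most shares were 0, so no alternative could pass it there. Designs with an animal left out at these 2 ages are also too small. All of these runs show nothing. The difference (CF minus no CF, percentage points) kept its sign under all 20 alternatives at 80 days. At 120 days it turned to 0.00266 with 2 UMIs of each of 2 genes and to 0.110 as a share of epithelial cells, and at term to 0.00804 without the animal with the most cells. Leaving out each animal in turn gave -0.282 to -0.0217 at 80 days, -0.0223 to 0.0203 at 120 days (0.0203 without no CF fetus 1) and -1.61 to 0.00804 at term. Replicate numbers did not pair the animals (9 pairs, correlation of deviations -0.389 to 0.253, 3 above 0.1). With the replicate block the difference was -0.282 at 80 days, 0.0152 at 120 days and 0.00804 at term. Genes called higher (520) and lower (208) against duct cells became 249 and 1387 after thinning, where 11 and 98 intestine-like cells remained after rule genes were sought again in the thinned cells. Ratios centred on their median, an alternative chosen after seeing the data, gave 312 higher and 305 lower, which moves the share of higher calls, and duct cells with under 5% acinar UMIs, also chosen after, gave 276 and 649. The 80-day fetus or the term animal alone gave 802 to 1443 higher and 272 to 409 lower genes, since 1 library then decides a call. The planned edgeR and DESeq2 fits, the fit without animal as a block and that without a low-count filter were not run, because 2 animals had enough cells. None of the animals with CF had 10 cells of the class, so no alternative gives a value. The 20 cells of the 80-day fetus limit its genes, since 3 counts there are 6.82 CPM.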

Other observations

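One cell that the rule chose in the term animal held 2533 of the 2600 UMIs of PPY (pancreatic polypeptide) found in the class. It passed through 1 UMI of CDH17 and 1 of MUC2, with 5 UMIs of CHGA and 1 of LOC101108654. No UMI of REG4, SPINK4, LGALS4, KRT20 or VIL1 was found, so its values did not bear out the label. The cell stayed in the class. It was picked out after its values were seen.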
